A study of Mus musculus with 4 samples.

Results

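The respiratory chain genes described here were the 94 genes whose only annotated symbol begins with Nduf, Sdha to Sdhd, Uqcr, Cox4 to Cox8 or Atp5, out of 18193 genes measured. They comprised 36 genes of complex I, 4 of complex II, 8 of complex III, 17 of complex IV, 17 of complex V and 12 assembly factors (Ndufaf and Sdhaf). Of these, 88 were in the brighter 50% of all genes (an intensity of about 247 or more), which were the genes counted, and 78 were in the brightest 25%. The remaining 6 (Cox4i2, Cox7b2, Cox7c, Cox8b, Ndufa4l2 and Ndufb4) were dimmer and are given separately. Symbols settled the choice, without regard to the measured values. The subunits encoded in mitochondrial DNA and 10 probe sets annotated to a matching symbol among several were not analysed here.

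Total RNA from glomeruli, the filtering units of the kidney, of male mice was hybridised to 1 Affymetrix array per group, for 4 arrays in all. The KO ALDO group had a systemic knockout of GC-A (guanylyl cyclase A, the natriuretic peptide receptor encoded by Npr1) and received aldosterone under the skin together with 6% salt in the diet for 3 weeks. The WT ALDO group was wild type under that treatment, and the KO control and WT control groups, of the same genotypes, received 2% ethanol and normal chow. Mice of every group had a kidney removed. The sources used here do not give strain, age, or whether an array held RNA of a single mouse or a pool. As each group had 1 array and no replicate, no difference below has a test or an error, and each compares single arrays. The series sets the genotypes against each other under either treatment and the treatments against each other in either genotype.

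The respiratory chain sits in the inner mitochondrial membrane. Complex I takes electrons from NADH, and complex II, which is also the succinate dehydrogenase of the tricarboxylic acid cycle, takes them from succinate. Both pass them through coenzyme Q to complex III and on through cytochrome c to complex IV, which reduces oxygen. Complexes I, III and IV pump protons, and complex V, the ATP synthase, uses the gradient to make ATP. In the kidney, proximal tubules and thick ascending limbs are much richer in mitochondria than glomeruli.

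Array intensities had a common trimmed mean of 500.003, with medians of 103 in KO ALDO, 91.9 in WT ALDO, 97.7 in KO control and 89.5 in WT control. Npr1 had an intensity of 23.4 in KO ALDO, 60.5 in WT ALDO, 108 in KO control and 92.6 in WT control, dim throughout. The sources used here do not place this probe set relative to the deletion, so it checks neither genotype label. Of the 12 listed proximal tubule markers all were bright, with summed intensities of 213677 in KO ALDO, 244437 in WT ALDO, 235151 in KO control and 259075 in WT control. The glomerular preparations thus held tubular RNA. Of the podocyte markers 5 of 8 were read, each of them bright, with summed intensities of 20639, 18984, 17871 and 18441 in that order of groups. In such bulk RNA, fewer cells of a type and less RNA per cell cannot be told apart.

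Promoters of these genes are known for sites of NRF-1, GABPA (also called NRF-2) and YY1, factors tied to the expression of nuclear genes for mitochondria, and of ERR-alpha, an orphan nuclear receptor that acts with PGC-1alpha. RefSeq (GRCm38.p6) gave 83 promoters of 78 of the 94 genes, each from 250 bases before to 50 after the start. The letters searched on both strands were GCGCANGCG for NRF-1, CCGGAAG for GABPA, AAGATGGCG for YY1 and TCAAGGTCA for ERR-alpha, none of which contains another. NRF-1 letters were in 27.7% of the 83 promoters, against 13.6% of the 9599 promoters of the brighter 50% of genes and 6.25% of all 32851. For GABPA the shares were 26.5%, 17.4% and 8.86%, for YY1 8.43%, 3.15% and 1.40%, and for ERR-alpha 2.41% (2 promoters), 0.271% and 0.423%. A match is a description of letters and not a bound site.

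Sequences of 5 promoters are shown 5′ to 3′ on the strand of the gene, with matched motif letters in capitals. Cox6b2 (chr7:4753045-4753344, minus strand) and Cox6b1 (chr7:30626065-30626364, minus strand) encode isoforms of the same complex IV subunit whose intensities behaved differently. Sdha (chr13:74350191-74350490, minus strand), Sdhb (chr4:140961021-140961320, plus strand) and Sdhd (chr9:50603800-50604099, minus strand) are the genes of complex II with a promoter among the 83. By the brightest probe set of each gene, all of complex II was lowest on the KO ALDO array. Second bright probe sets of Sdhc and Sdhd were instead lowest in WT ALDO.
Cox6b2: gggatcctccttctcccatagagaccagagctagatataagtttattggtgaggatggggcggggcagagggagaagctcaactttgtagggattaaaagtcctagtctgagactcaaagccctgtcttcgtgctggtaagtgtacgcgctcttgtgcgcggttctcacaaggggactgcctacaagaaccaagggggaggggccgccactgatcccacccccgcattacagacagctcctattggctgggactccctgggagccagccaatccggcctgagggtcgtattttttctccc
Cox6b1: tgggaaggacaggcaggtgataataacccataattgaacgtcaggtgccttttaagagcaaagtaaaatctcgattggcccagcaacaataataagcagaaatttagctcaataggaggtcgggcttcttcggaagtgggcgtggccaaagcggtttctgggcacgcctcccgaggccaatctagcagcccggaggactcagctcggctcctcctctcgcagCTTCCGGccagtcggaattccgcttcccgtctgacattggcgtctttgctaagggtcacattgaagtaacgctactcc
Sdha: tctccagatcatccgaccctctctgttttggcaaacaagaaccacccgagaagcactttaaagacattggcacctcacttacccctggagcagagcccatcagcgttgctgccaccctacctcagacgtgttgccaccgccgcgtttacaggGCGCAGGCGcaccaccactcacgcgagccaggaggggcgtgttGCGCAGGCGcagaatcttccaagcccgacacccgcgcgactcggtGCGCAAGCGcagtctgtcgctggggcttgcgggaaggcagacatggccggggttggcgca
Sdhb: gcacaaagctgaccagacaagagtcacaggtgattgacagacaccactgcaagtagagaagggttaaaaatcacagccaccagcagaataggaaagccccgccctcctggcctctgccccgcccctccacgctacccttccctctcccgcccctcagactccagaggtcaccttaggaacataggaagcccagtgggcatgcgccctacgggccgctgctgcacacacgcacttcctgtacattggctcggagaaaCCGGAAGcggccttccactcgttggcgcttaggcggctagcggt
Sdhd: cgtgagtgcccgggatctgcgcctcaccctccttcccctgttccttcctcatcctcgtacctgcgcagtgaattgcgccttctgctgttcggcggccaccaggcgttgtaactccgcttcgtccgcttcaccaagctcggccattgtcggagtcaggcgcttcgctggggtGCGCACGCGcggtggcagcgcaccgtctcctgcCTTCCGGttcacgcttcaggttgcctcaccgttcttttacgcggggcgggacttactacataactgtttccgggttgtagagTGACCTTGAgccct
The Cox6b2 window held none of the 4 motifs, and Cox6b1 held 1 GABPA match. NRF-1 or GABPA letters were in 45.8% of the 83 promoters and in 25% of the 12 of complex IV. They were in 28.2% of the promoters of the brighter 50% of genes and 13.9% of all promoters, so a window without them was common. Sdha held 3 NRF-1 matches and Sdhb 1 GABPA match. Sdhd held 1 match each for NRF-1, GABPA and ERR-alpha.

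Most respiratory chain genes were bright, and the KO ALDO array gave the lowest value for most of them. Of the 88 genes, 59 (67.0%) had their lowest value on the KO ALDO array. The share was 30.2% of the 9097 genes of the brighter 50% and 40.0% of the brightest 25%. Genes of like brightness lay closer at the top. At a mean log2 value of 14 or more it was 55.2% of 29 respiratory chain genes and 50.3% of all 163 genes. From 13 to 14 it was 75.8% of 33 and 58.5% of 335. From 11 to 13 it was 81.8% of 11 and 44.9% of 1857, and from 8 to 11 60.0% of 15 and 24.2% of 6742. WT ALDO was lowest for 16 of the 88 genes, KO control for 6 and WT control for 7. The differences were small: the median log2 difference, computed on log2(intensity + 16), was -0.10 (0.93-fold) for KO ALDO against KO control and -0.07 (0.95-fold) for KO ALDO against WT ALDO. It was -0.02 for WT ALDO against WT control and 0.01 for KO control against WT control. Median differences of all 9097 genes lay between -0.002 and 0.01 in the 4 comparisons.

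**Figure D1:**
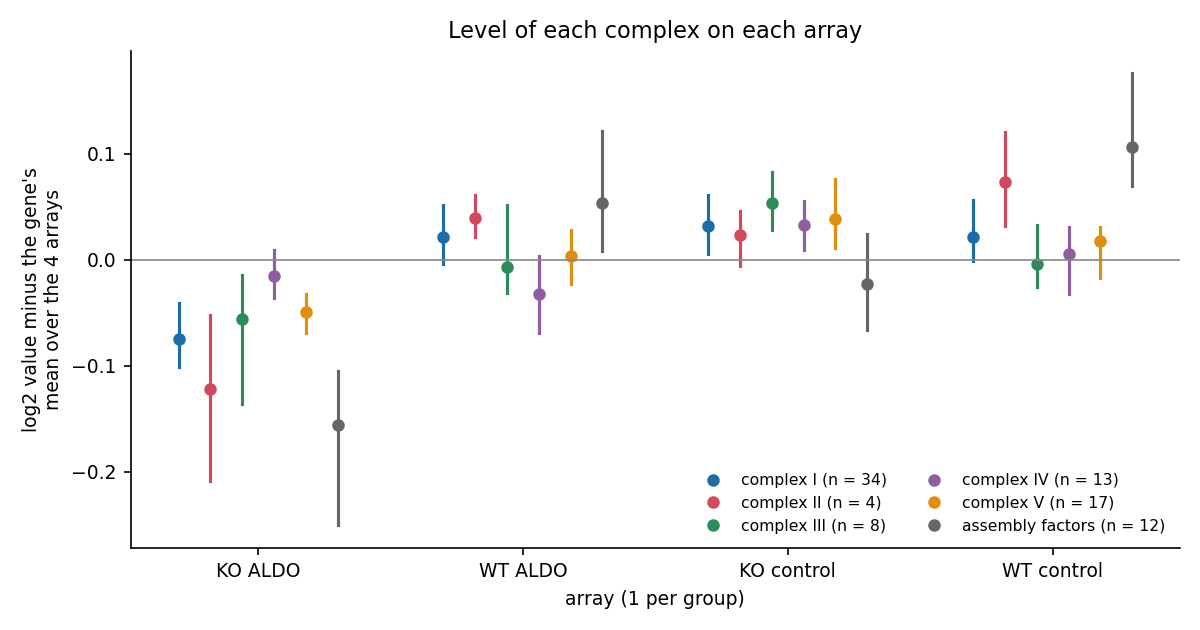
Median deviation of each complex on each array, as log2(intensity + 16) minus the gene's own mean over the 4 arrays, with bars from the lower to the upper quartile of the genes. On the KO ALDO array every group of genes has a median below 0, from complex IV closest to 0 down to the assembly factors, while the other 3 arrays scatter about 0.

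Under ALDO treatment, the KO array was lower than the WT array in 71 of the 88 genes. The share was 48.7% of all genes and 59.2% of the brightest 25%. Of the 88, 59 were lower with quantile-normalized arrays, where the median was -0.03. The count was 85 when arrays were centred on their medians, where the median was -0.22. Centring also moved the median of all 9097 genes to -0.13 in this comparison and to -0.11 for KO control against WT control, so its shifts are best read relative to all genes. Relative to the median of all genes, the difference ranged from -0.12 to -0.02 over the settings tried. No gene of the 88 was higher by 1.5-fold or more in KO ALDO than in WT ALDO, against 6.55% of all genes. Lower by 1.5-fold or more was 1 gene, Ndufaf6, against 2.42% of all genes.

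ALDO in KO mice gave the most uniform difference: 78 of 88 genes were lower in KO ALDO than in KO control, against 47.7% of all genes. With quantile normalization 62 were lower, and the median was -0.05. Not one gene was higher or lower by 1.5-fold or more, against 3.43% and 1.36% of all genes. ALDO in WT mice left 52 of 88 genes lower than in WT control, against 48.1% of all genes. Here 1 gene, Cox6b2, was higher by 1.5-fold or more and 0 were lower, against 2.04% and 1.6% of all genes.

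Between KO control and WT control, 42 of the 88 genes were lower, against 50.3% of all genes. Cox6b2 alone was higher by 1.5-fold or more and no gene was lower by that much, against 3.83% and 1.51% of all genes. When arrays were centred on their medians, 79 of the 88 lay below 0 in this comparison, at a median of -0.10 against the -0.11 of all genes.

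For the difference between the ALDO effects (KO minus WT), 72 of 88 genes were below 0, against 49.4% of all genes, at a median of -0.07. The share was 55.9% of the brightest 25%. At a mean log2 value from 13 to 14 it was 90.9% of 33 respiratory chain genes and 71.6% of all 335 genes. At 14 or more it was 82.8% of 29 and 67.5% of all 163. With quantile normalization 60 of the 88 were below 0. No gene of the 88 was above 0 by 1.5-fold or more and Cox6b2 was below 0 by that much, against 3.35% and 2.07% of all genes. Both ALDO differences were below 0 in 47 genes (53.4%, against 29.0% of all genes), and 31 genes (35.2%, against 18.7%) were above 0 in WT and below 0 in KO. Both were above 0 in 5 genes (5.68%, against 33.2%), and the remaining 5 (5.68%, against 19.1%) were below 0 in WT and above 0 in KO.

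**Figure D2:**
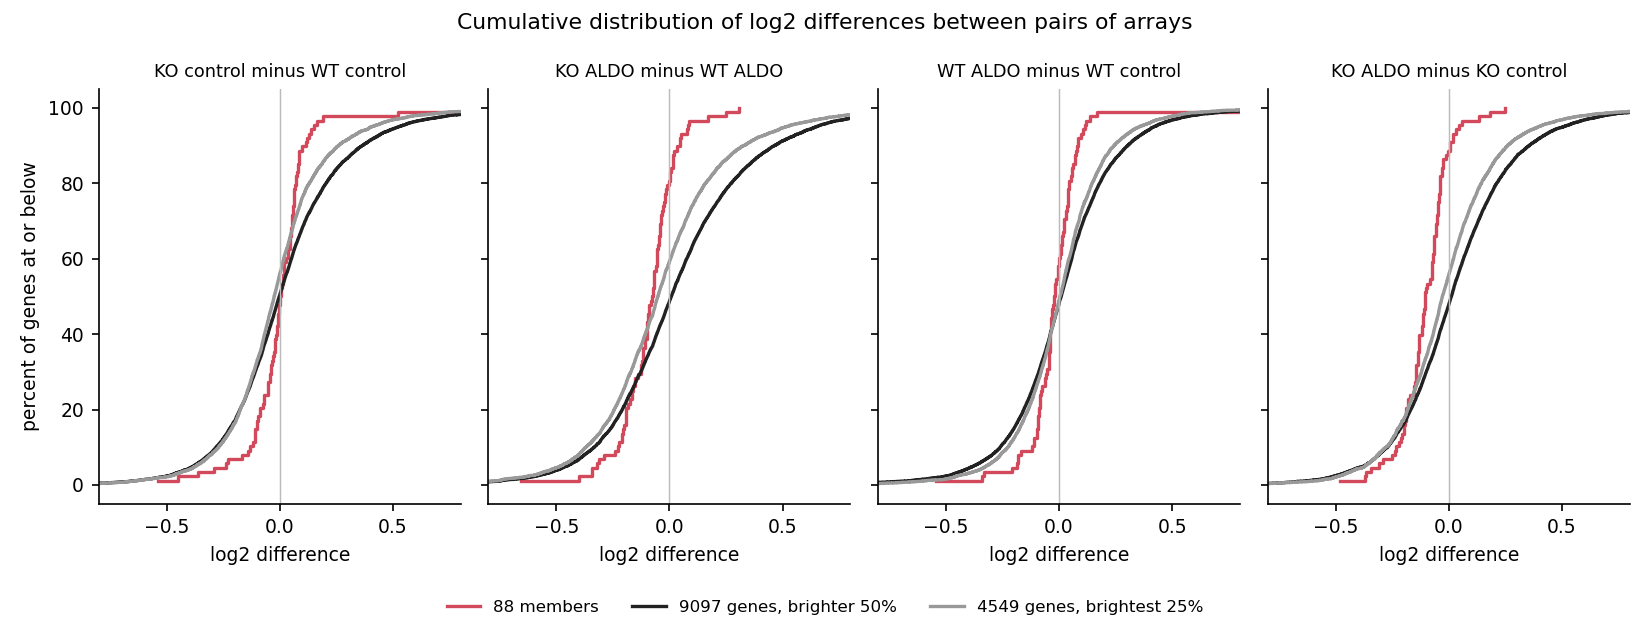
Cumulative share of genes (percent) at or below each log2 difference, for the 88 respiratory chain genes, the 9097 genes of the brighter 50% and the 4549 genes of the brightest 25%, 1 panel per comparison. The curve of the respiratory chain genes is the steepest in all panels, and it crosses 0 at its highest share for KO ALDO minus KO control, where 78 of 88 genes lie below 0.

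Brightness moved with these differences. Across all genes with a mean log2 value from 13 to 14, 335 in number and including 33 of the respiratory chain, 71.6% were lower in KO ALDO than in WT ALDO at a median of -0.09. Of the 33 respiratory chain genes at that level, 84.8% were lower, also at a median of -0.09. At the same level, 97.0% of the 33 and 70.7% of the 335 were lower in KO ALDO than in KO control, at medians of -0.11 and -0.07. Among genes at 14 or more, 93.1% of 29 respiratory chain genes and 76.7% of all 163 were lower in KO ALDO than in KO control, at medians of -0.07 and -0.06. For KO ALDO against WT ALDO at that level, 69.0% of the 29 and 67.5% of the 163 were lower, both at a median of -0.03. Genes this bright as a whole were thus lower on the KO ALDO array, by medians close to those of the respiratory chain genes. Below that level the respiratory chain genes stood further from the rest. The 11 with a mean log2 value from 11 to 13 had medians of -0.15 for KO ALDO against WT ALDO and -0.14 for KO ALDO against KO control, where all 1857 genes at that level had -0.08 and -0.04. The 15 from 8 to 11, most of them assembly factors, had -0.21 and -0.15, where all 6742 genes had 0.05 and 0.04. The part of brightness in the result was not tested.

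The spread over the 4 arrays was narrow for most of these genes. The range from the lowest to the highest array had a median of 0.15 (log2) over the 88 genes, against 0.32 over all 9097 genes and 0.28 over the brightest 25%. Brighter genes had narrower ranges in general: at a mean log2 value of 14 or more the median range was 0.10 for the respiratory chain genes and 0.15 for all genes, and from 13 to 14 it was 0.14 and 0.24. From 8 to 11 the respiratory chain genes were the wider, at 0.39 against 0.34. A range under 0.2 was found in 59 of the 88 (67.0%), against 23.8% of all genes and 31.0% of the brightest 25%. By the brightest probe set of each gene, all 17 complex V genes were under 0.2, and only 1 of 12 assembly factors was (Sdhaf4). Second bright probe sets were not part of these ranges. That of Atp5o gave -0.50 for WT ALDO against WT control and -0.46 for KO ALDO against KO control. That of Uqcrb gave -0.15 and -0.20. The median gap between the 2 probe sets of a gene was 0.11 and 0.06 in these comparisons. Uqcrb, a small subunit of complex III, had the smallest range at 0.05, with intensities of 40053 in KO ALDO, 39945 in WT ALDO, 41282 in KO control and 40860 in WT control. Whether probe sets as bright as this still respond in proportion to RNA was not tested.

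**Figure D3:**
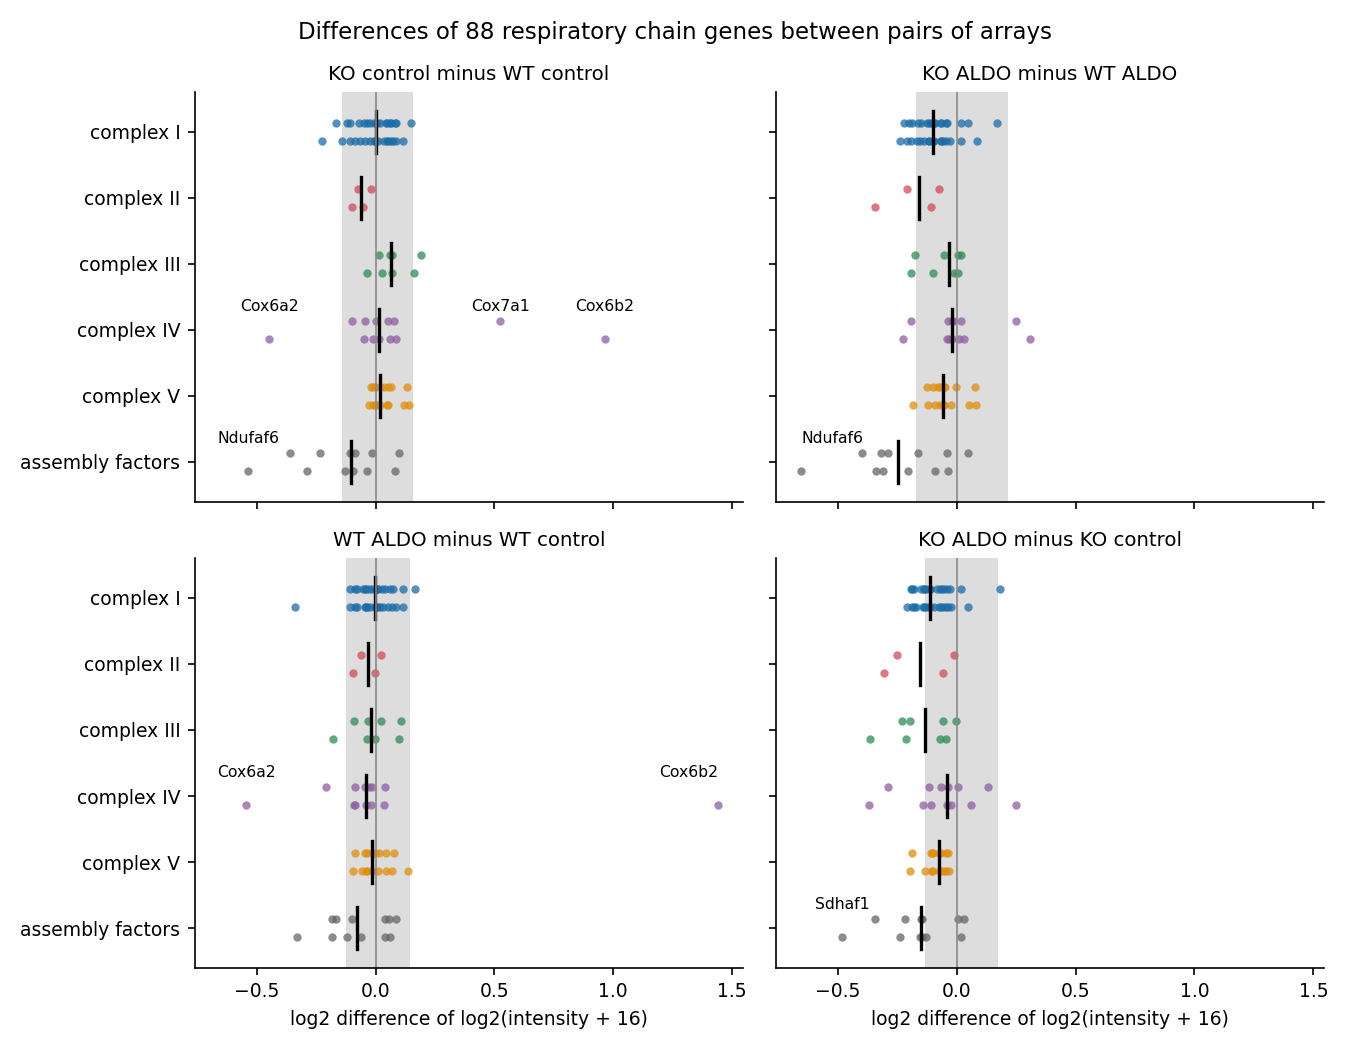
Log2 difference of each of the 88 genes, 1 point per gene, by complex in 4 pairs of arrays, with black bars at the median of each group and grey bands from the lower to the upper quartile of all 9097 genes. Complex IV holds the widest points of both comparisons with WT control (Cox6b2 highest and, for WT ALDO, Cox6a2 lowest), and the assembly factors reach furthest below 0 between KO and WT.

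Complex I has a matrix arm that holds the cofactors and a membrane arm that pumps protons. Its 34 bright genes had medians of -0.10 for KO ALDO against WT ALDO, with 29 of 34 lower, and -0.11 for KO ALDO against KO control, with 31 of 34 lower. For WT ALDO against WT control and for KO control against WT control the medians were -0.001 and 0.002, with 17 of 34 lower in each. KO ALDO was the lowest array for 25 of the 34.

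The 6 core subunits described here (Ndufs1, Ndufs3, Ndufs7, Ndufs8, Ndufv1 and Ndufv2), which carry or surround the flavin and iron-sulfur clusters of the matrix arm, all had their lowest value on the KO ALDO array. Their median was -0.13 against WT ALDO and -0.15 against KO control, where the 28 accessory genes had -0.08 and -0.10. Ndufs1, the large iron-sulfur subunit, had intensities of 5356 in KO ALDO, 6323 in WT ALDO, 6121 in KO control and 6336 in WT control. The KO ALDO value lay apart below the other 3, and its log2 difference from WT ALDO, -0.24, was the most negative of complex I. Ndufv1, which binds NADH and the flavin, had 9404 in KO ALDO, 10440 in WT ALDO, 10335 in KO control and 9913 in WT control. Its second-brightest probe set gave differences of -0.22 against WT ALDO and -0.18 against KO control, beside -0.15 and -0.14 for the brightest. Ndufs7, next to the site of coenzyme Q reduction, differed by -0.14 and -0.17, and its second probe set by -0.19 and -0.12.

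Accessory subunits had a median range over the arrays of 0.14, where the core subunits had 0.16. From the lower to the upper quartile, accessory genes spread wider for KO ALDO against WT ALDO (0.11, core 0.03). They also did for WT ALDO against WT control (0.09, core 0.04) and KO control against WT control (0.12, core 0.11). For KO ALDO against KO control they spread less (0.08, core 0.12). Ndufab1, the mitochondrial acyl carrier protein, had 10248 in KO ALDO, 11503 in WT ALDO, 11841 in KO control and 11191 in WT control. Its difference between KO ALDO and KO control (-0.21) was the most negative of the complex, but its second bright probe set gave -0.07. Ndufb6, of the membrane arm, stood apart in WT, at 9955 in WT ALDO against 12609 in WT control (-0.34), but its second probe set gave -0.02. Its values were 10566 in KO ALDO and 12033 in KO control, so both ALDO arrays were below both control arrays. Ndufb1 was the dimmest of the 34, at 270 in KO ALDO, 315 in WT ALDO, 236 in KO control and 279 in WT control. Ndufa7 was higher in KO ALDO (10307) than in WT ALDO (9168), a difference of 0.17, and its second probe set gave 0.03. Ndufa13 had the highest difference between KO control and WT control, at 0.15.

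Ndufa4, named for complex I but since assigned to complex IV, had 20090 in KO ALDO, 20890 in WT ALDO, 21996 in KO control and 21206 in WT control. Its paralogue Ndufa4l2, known as a target of hypoxia-inducible factor, was dim and went the other way: 198 in KO ALDO, 193 in WT ALDO, 121 in KO control and 107 in WT control. Both ALDO arrays were above both control arrays, by 0.64 in KO and 0.76 in WT (1.69-fold). All 4 values lay under the limit for counted genes. Ndufb4, also dim, had 50.5, 57.1, 44.6 and 44.2 in the same order of groups.

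Complex II has 4 subunits, and by their brightest probe sets all had their lowest value on the KO ALDO array. Medians were -0.16 against WT ALDO and -0.15 against KO control, with all 4 lower in both. They were -0.03 for WT ALDO against WT control, with 3 of 4 lower, and -0.06 for KO control against WT control, with all 4 lower. Sdha, the flavoprotein that oxidises succinate, had 12965 in KO ALDO, 14975 in WT ALDO, 15437 in KO control and 16013 in WT control. The differences from WT ALDO and KO control, -0.21 and -0.25, were -0.18 and -0.20 in its second-brightest probe set. Sdhb, the iron-sulfur subunit, had 17330 in KO ALDO, 18660 in WT ALDO, 17490 in KO control and 18388 in WT control, so that both KO arrays were below both WT arrays.

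Sdhc and Sdhd anchor the complex in the membrane. Sdhc had 3440 in KO ALDO, 4371 in WT ALDO, 4256 in KO control and 4566 in WT control, with differences of -0.34 and -0.31 that were the widest of the complex. A second bright Sdhc probe set, of a type that can bind other transcripts, gave 1870 in KO ALDO, 1062 in WT ALDO, 1898 in KO control and 1757 in WT control, and so 0.81 against WT ALDO. The 2 Sdhc probe sets thus went opposite ways under ALDO. Sdhd had 7257 in KO ALDO, 7648 in WT ALDO, 7549 in KO control and 7653 in WT control, a range of 0.08 over the arrays. Its second probe set gave 0.10 against WT ALDO, where the brightest gave -0.08. When all probe sets of a gene were averaged, complex II minus the median of the other respiratory chain genes was 0.03 for KO ALDO against WT ALDO.

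Complex III moves electrons to cytochrome c. All 8 genes were lower in KO ALDO than in KO control, at a median of -0.13, while 5 of 8 were lower than in WT ALDO, at -0.03. For WT ALDO against WT control the median was -0.02, with 5 of 8 lower. In KO control 1 of 8 was lower than in WT control, at a median of 0.06. Uqcrfs1, the Rieske iron-sulfur protein, had 9664 in KO ALDO, 11032 in WT ALDO, 11079 in KO control and 10871 in WT control, with KO ALDO below the other 3. Uqcrc2, a core protein, had 15928 in KO ALDO, 17995 in WT ALDO, 18692 in KO control and 19185 in WT control. Its second probe set gave -0.14 against WT ALDO and -0.13 against KO control, where the brightest gave -0.18 and -0.23.

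Uqcrc1, the other core protein, had 11792 in KO ALDO, 11883 in WT ALDO, 13659 in KO control and 12202 in WT control. Uqcrq, a small subunit, had 13218 in KO ALDO, 13187 in WT ALDO, 17041 in KO control and 14947 in WT control. In both genes the 2 ALDO arrays differed little and KO control was the highest. The differences between KO ALDO and KO control were -0.21 and -0.37, and those between WT ALDO and WT control -0.04 and -0.18. Cytochrome c itself (Cycs), not among the 94 genes, was likewise lower on both ALDO arrays, at 31258 in KO ALDO, 30944 in WT ALDO, 36476 in KO control and 35208 in WT control.

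Complex IV had the medians closest to 0 on the KO ALDO array, and it held the widest differences of both comparisons with WT control. Its 13 bright genes had medians of -0.02 against WT ALDO and -0.04 against KO control, with 8 and 9 of 13 lower. The medians were -0.04 for WT ALDO against WT control, with 10 lower, and 0.01 for KO control against WT control, with 5 lower. KO ALDO was the lowest array for 4 of the 13. By their brightest probe sets, the bright and widely expressed subunits other than Cox7a2l had ranges over the arrays from 0.05 (Cox6c) to 0.12 (Cox6b1). Cox7a2l had a range of 0.24. For KO ALDO against KO control Cox5a gave -0.11 and Cox6b1 -0.12, where the median of the 88 genes was -0.10. Cox4i1 had 28038 in KO ALDO, 28648 in WT ALDO, 28827 in KO control and 29055 in WT control, a range of 0.05. For Cox5a and Cox5b, differences in the 4 comparisons lay between -0.11 and 0.06. Their second bright probe sets lay between -0.06 and 0.11. The brightest probe set of Cox6c gave 0.004 for KO ALDO against KO control and -0.03 for WT ALDO against WT control. Its second gave -0.42 and -0.36. Cox7a2l, which joins complexes III and IV into supercomplexes, had 3126 in KO ALDO, 3206 in WT ALDO, 3452 in KO control and 3702 in WT control.

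Tissue-restricted isoforms of complex IV differed most. Cox6b2, the testis isoform of Cox6b1, had an intensity of 679 in KO ALDO, 798 in WT ALDO, 569 in KO control and 284 in WT control. WT control was far below the other 3, so the gene was higher by 1.44 (2.71-fold) in WT ALDO and by 0.96 (1.95-fold) in KO control than in WT control. Between KO ALDO and KO control the difference was 0.25, and between KO ALDO and WT ALDO -0.23. Only 1 probe set carried the symbol, so no second one could be read. Cox6b1, the widely expressed isoform, had 29851 in KO ALDO, 29665 in WT ALDO, 32347 in KO control and 30637 in WT control.

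Cox7a1 and Cox6a2 are the isoforms of heart and skeletal muscle, and Cox7a2 and Cox6a1 their widely expressed counterparts. Cox7a1 had 1316 in KO ALDO, 1105 in WT ALDO, 1702 in KO control and 1178 in WT control. Both KO arrays were above both WT arrays, by 0.25 under ALDO and 0.52 under control treatment. Cox6a2 had 256 in KO ALDO, 295 in WT ALDO, 316 in KO control and 437 in WT control, and differed by -0.54 between WT ALDO and WT control. Cox7a2 and Cox6a1, by contrast, had ranges of 0.09 and 0.08 over the 4 arrays.

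Cox8b, the muscle isoform of Cox8a, was dim, at 95.2 in KO ALDO, 59.1 in WT ALDO, 120 in KO control and 10.9 in WT control. Its difference between KO control and WT control, 2.33, went with the very low WT control value, and was 1.29 with a pseudocount of 64 and 3.34 with a pseudocount of 1. Cox8a had a range of 0.06, and Cox8c, a testis isoform, had 377 in KO ALDO, 302 in WT ALDO, 343 in KO control and 322 in WT control. Cox7b2 had 24.5 in KO ALDO, 7.55 in WT ALDO, 2.84 in KO control and 9.64 in WT control, near the floor of the array. Cox4i2, a hypoxia-responsive isoform of Cox4i1, was dim too, at 77.2 in KO ALDO, 60.6 in WT ALDO, 62.7 in KO control and 72.2 in WT control. Cox7c gave 178, 209, 194 and 184 in the same order of groups. Whether the dim values of Cox7c and of Ndufb4 reflect little RNA or their probe sets was not tested.

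Complex V consists of a catalytic head, a stalk and a ring that turns in the membrane. By their brightest probe sets all 17 genes were lower in KO ALDO than in KO control, at a median of -0.08. In the same way 14 of 17 were lower than in WT ALDO, at -0.06. The second bright probe set of Atp5h gave 0.07 against KO control, where the brightest gave -0.10. Those of the other complex V genes that had one were lower too. In WT, 10 of 17 were lower in WT ALDO than in WT control, at -0.02, and in KO control 5 of 17 were lower than in WT control, at 0.02. KO ALDO was the lowest array for 13 of 17. The catalytic subunits were Atp5a1, at 17012 in KO ALDO, 18241 in WT ALDO, 17930 in KO control and 18044 in WT control, and Atp5b, at 27815, 26277, 29100 and 26581 in the same order. Atp5b was thus higher on both KO arrays than on both WT arrays, where Atp5a1 was not.

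Atp5g1, Atp5g2 and Atp5g3 encode the same mature ring subunit with different import sequences. Atp5g1 had 12048 in KO ALDO, 13684 in WT ALDO, 12615 in KO control and 12445 in WT control, with WT ALDO the highest. Its differences were -0.18 for KO ALDO against WT ALDO and 0.14 for WT ALDO against WT control. Atp5g2 and Atp5g3 had ranges of 0.06 and 0.08. The most negative difference between KO ALDO and KO control was that of Atp5md, a small membrane subunit, at -0.20, with 17393 in KO ALDO, 18963 in WT ALDO, 19934 in KO control and 19448 in WT control.

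Assembly factors help to build complexes I and II and are not part of them. Their 12 genes had the lowest median between the genotypes, -0.25 for KO ALDO against WT ALDO with 11 of 12 lower. For KO control against WT control it was -0.10 with 10 of 12 lower. ALDO gave medians of -0.15 in KO, with 9 of 12 lower, and -0.08 in WT, with 7 of 12 lower. Ndufaf6, a complex I assembly factor, had 649 in KO ALDO, 1031 in WT ALDO, 768 in KO control and 1121 in WT control. Both KO arrays were below both WT arrays, with differences of -0.66 under ALDO (0.64-fold) and -0.54 under control treatment.

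Sdhaf1, which in human cells serves the iron-sulfur clusters of Sdhb, had 1147 in KO ALDO, 1457 in WT ALDO, 1607 in KO control and 1520 in WT control. Its -0.48 against KO control was the widest ALDO difference in KO among the 88. Ndufaf1, which acts on the membrane arm of complex I, had 961 in KO ALDO, 1273 in WT ALDO, 1224 in KO control and 1237 in WT control, with KO ALDO below 3 like values. Sdhaf2, needed to attach flavin to Sdha, differed by -0.31 between KO ALDO and WT ALDO, but its second probe set gave 0.04. Sdhaf3 was highest in WT control, at 496 in KO ALDO, 479 in WT ALDO, 494 in KO control and 607 in WT control.

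**Figure D4:**
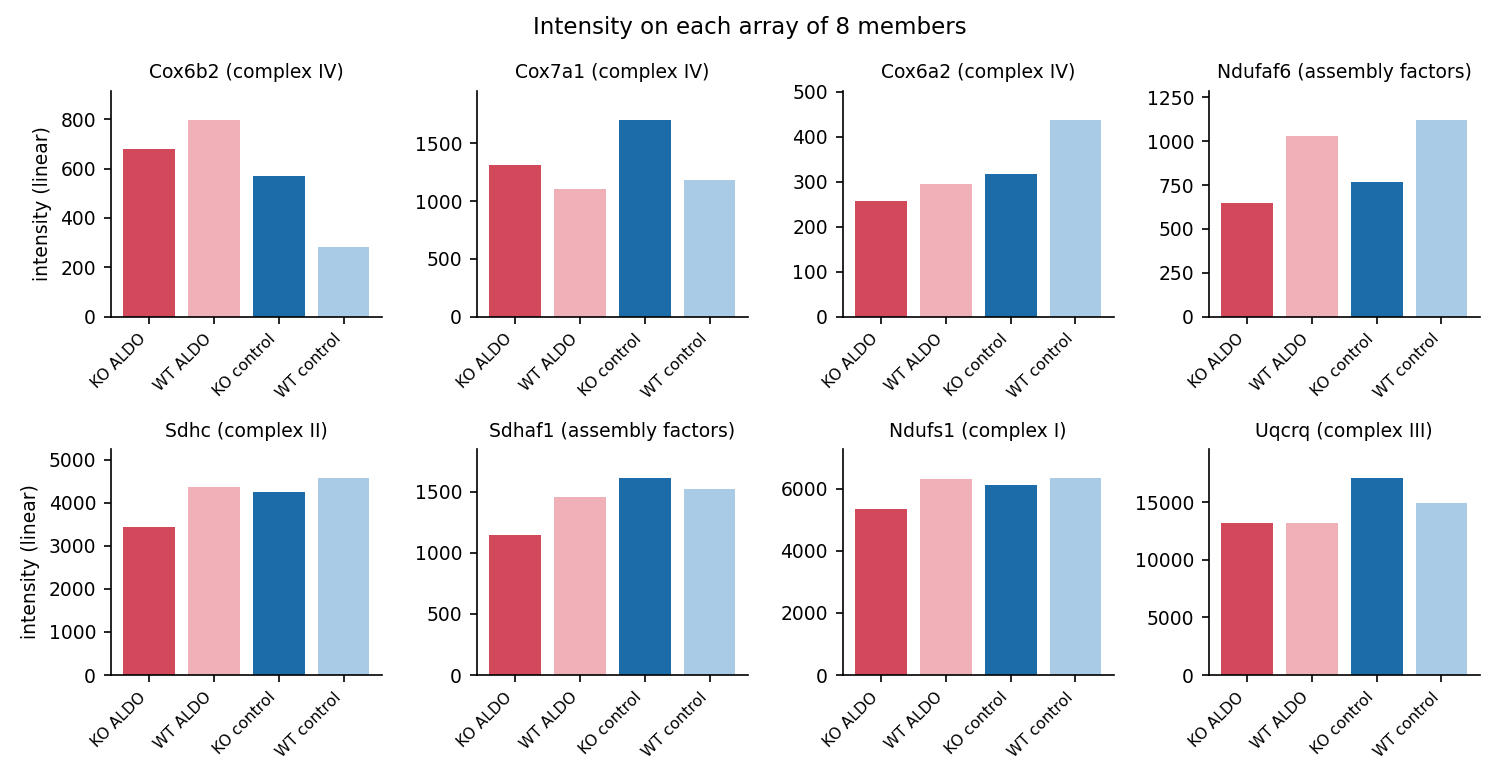
Intensity on a linear scale of 8 genes on the 4 arrays, 1 bar per array with no error, since each group had 1 array. Cox6b2 is lowest in WT control (284), Ndufaf6 is lower on both KO arrays, and Sdhc, Sdhaf1 and Ndufs1 are lowest in KO ALDO.

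A second bright probe set was available for 44 of the 88 genes and reads the same RNA. For KO ALDO against KO control it was below 0 in 40 of 44 genes, where the brightest was in 39. For KO ALDO against WT ALDO it was below 0 in 34 of 44, as was the brightest. With most signs on 1 side, agreement gene by gene says little, and for WT ALDO against WT control the 2 probe sets had the same sign in 23 of 44. Medians of the second probe sets were -0.09 for KO ALDO against either array. The median gap between the 2 probe sets of a gene was 0.06, 0.05, 0.11 and 0.07 in these 4 comparisons.

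Other genes of mitochondria gave a like picture on the KO ALDO array. All 13 bright tricarboxylic acid cycle genes were lower in KO ALDO than in KO control, at a median of -0.17, and 12 of 13 were lower than in WT ALDO, at -0.19. Sucla2, a subunit of succinyl-CoA synthetase, had 5608 in KO ALDO, 7193 in WT ALDO, 6313 in KO control and 6481 in WT control. Of 76 mitochondrial ribosomal protein genes, 64 were lower in KO ALDO than in KO control, at -0.11, and 63 were lower than in WT ALDO, at -0.17. These genes were also lower in KO control than in WT control in 59 of 76, at -0.07, where the respiratory chain genes had a median of 0.01. Among 9 coenzyme Q synthesis genes 8 were lower in each comparison, at -0.18 and -0.20. Import genes had medians of -0.13 and -0.10, with 18 and 16 of 21 lower. The 24 assembly genes of complexes III and IV had -0.09 and -0.15, with 20 and 18 lower.

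Not every list went this way. The 8 genes of electron carriers and adenine nucleotide exchange had medians of 0.00 for KO ALDO against KO control and -0.01 against WT ALDO, and 43 genes with symbols that begin with Rpl or Rps, most of them cytosolic ribosomal proteins, had -0.01 in both. That list also took in Rps6ka3 and Rps6kb2, which are kinases, and Rps19bp1, a binding protein. Ckmt1, the ubiquitous mitochondrial creatine kinase, was higher on both KO arrays, at 900 in KO ALDO, 389 in WT ALDO, 823 in KO control and 314 in WT control. Among 12 regulators of mitochondrial biogenesis the medians were -0.13 and -0.07, with 8 and 7 lower. Ppargc1a, which encodes the coactivator PGC-1alpha, was flat, at 1894 in KO ALDO, 1847 in WT ALDO, 1830 in KO control and 1809 in WT control. Tfam, which packages mitochondrial DNA and starts its transcription, had 1167 in KO ALDO, 1404 in WT ALDO, 1288 in KO control and 1444 in WT control.

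Markers of mitochondria-rich tubules moved in part with these genes. Proximal tubule markers were lower in 11 of 12 for KO ALDO against WT ALDO, at a median of -0.32, and in 10 of 12 for KO ALDO against KO control, at -0.10. They were also lower in 11 of 12 for KO control against WT control, at -0.21, where the respiratory chain genes had a median of 0.01. For WT ALDO against WT control 9 of 12 were lower, at -0.06. Thick limb and distal nephron markers had medians of -0.16, 0.16, 0.01 and 0.33 in the order of these 4 comparisons, and the 9 genes summed to 85265 in KO ALDO, 80691 in WT ALDO, 79325 in KO control and 75728 in WT control. Glomerular endothelial markers were higher in 7 of 7 for KO ALDO against WT ALDO, at 0.46, and in 6 of 7 for KO ALDO against KO control, at 0.39. The part of the tubular and glomerular share in the respiratory chain result was not tested.

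**Figure D5:**
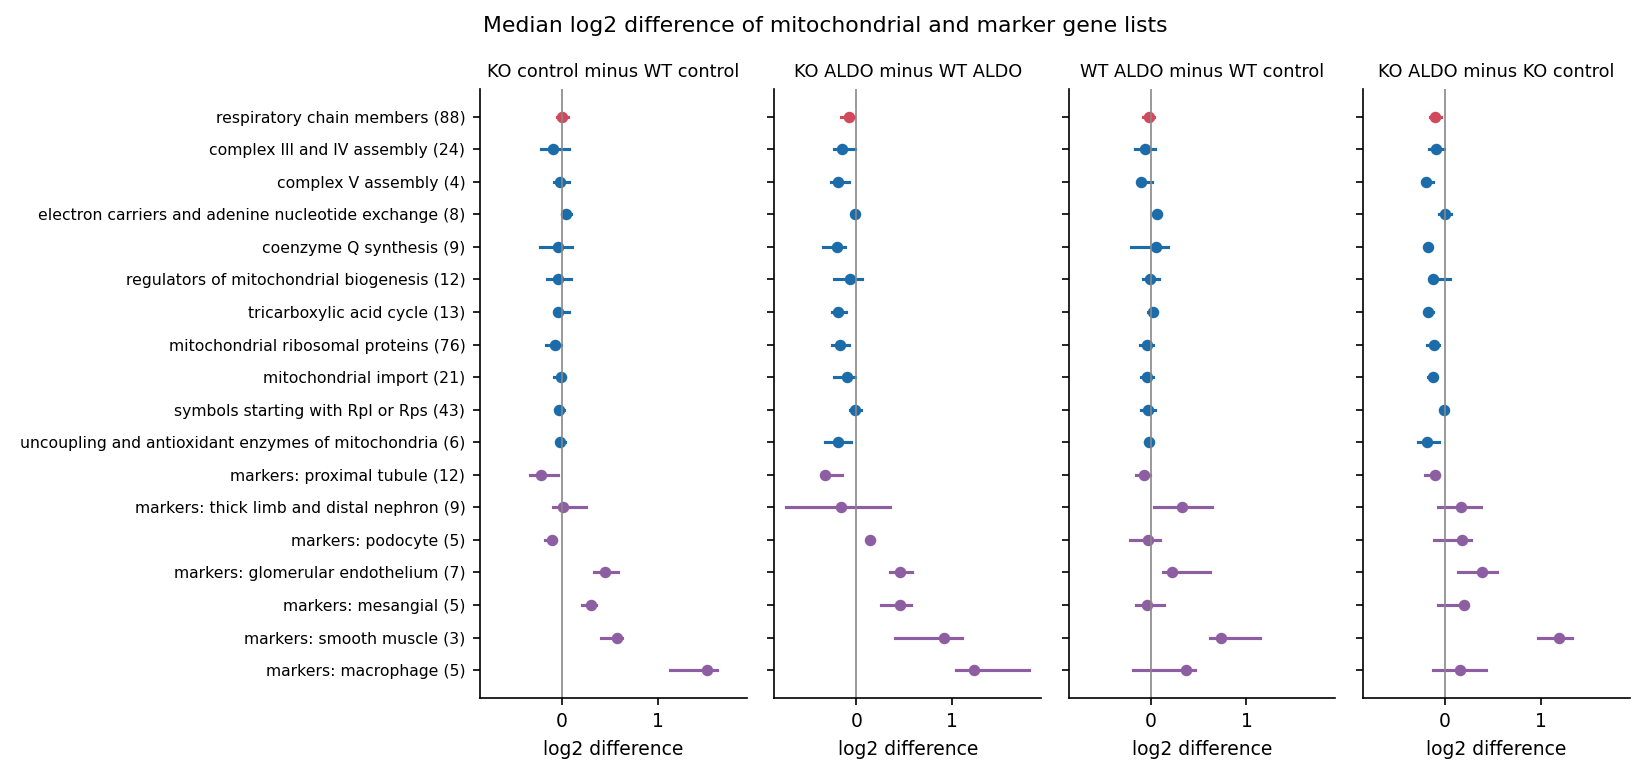
Median log2 difference of the 88 respiratory chain genes (red), 10 further gene lists (blue) and 7 lists of cell type markers (purple) in 4 pairs of arrays, with the number of bright genes in brackets and bars from the lower to the upper quartile. Most mitochondrial lists lie left of 0 for both comparisons of KO ALDO, proximal tubule markers lie left of 0 in all 4, and macrophage markers lie furthest right between KO and WT.

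Macrophage markers summed to 9587 in KO ALDO, 4555 in WT ALDO, 8897 in KO control and 4624 in WT control over 5 bright genes. As a sign of RNA quality, beta-actin had a ratio of 3′ over 5′ signal of 1.61 in KO ALDO, 1.87 in WT ALDO, 1.67 in KO control and 1.86 in WT control, and that of Gapdh was 0.744, 0.778, 0.741 and 0.785 in the same order. Both ratios were lower on the KO arrays, in KO control as in KO ALDO, and their part in the results was not tested.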

How the data were processed

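The authors deposited 1 column of linear probe set intensities per array, made with Affymetrix Expression Console, per the submitters' processing notes. The sources used here do not give its algorithm, version or detection calls. A mean of 500.003 on each array after removal of the highest and lowest 2% showed a common scaling, which sets average signal equal. Probe sets with 1 annotated symbol were kept (34945 of 45101), the brightest by mean over the arrays represented each gene, and values became log2(intensity + 16), which understates the change of dim genes. All 94 Entrez identifiers were in the RefSeq table of GRCm38.p6 and no symbol differed. With 1 array per group, no p-value or error was computed, and the number of arrays limits the precision. Differences of at least 1.5-fold were counted.

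Named genes were those past 1.5-fold, the highest and lowest of each complex per comparison, all of complex II, core subunits, tissue isoform pairs, and a few list genes chosen after their values were seen. The genes, lists and comparisons were chosen with earlier results of these data known. Alternatives were other scalings, pseudocounts of 1 and 64, other probe set choices and other filters on brightness. The bins of brightness, and the setting without probe sets that can bind several transcripts, were added after seeing the data. The steps were tested on simulated data. Python 3.11.15, numpy 2.4.6, pandas 2.3.3 and matplotlib 3.10.9 were used.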

Additional observations from a re-analysis of the deposited data

Results flagged for a closer look

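Of the respiratory chain genes, 2 had ALDO differences of opposite sign in KO and WT that lay 2-fold or more apart, and both were dim. That is 2.13% of the 94, where 8.91% of all 18193 genes and 17.1% of the 9096 dim genes did so. For Cox8b the difference between the ALDO effects (KO minus WT) was -1.77, from -0.29 in KO and 1.48 in WT, and its WT control intensity was 10.9. For Cox7b2 it was 1.23, from 1.10 in KO and -0.12 in WT, with all 4 intensities under 25. Outside that rule, the core subunits of complex I had a median difference between the effects of -0.19, with medians of -0.15 in KO and 0.02 in WT. The same difference had a median of -0.07 for the accessory genes of complex I and -0.15 for complex III. It was -0.21 for the tricarboxylic acid cycle genes, so this was not particular to the core subunits. None of these differences was tested, since each group had 1 array.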

How the results depend on the processing

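Of 405 recomputed values, 386 stayed within the limits set (0.1 on the log2 scale, or 1.5 times for a count) and 19 moved further. The limit of 0.1 is about as large as the medians, so a median that fell to 0 could still stay within it. A total of 0 were counted as reversed, but small values did change sign. Complex II minus the other genes, for KO ALDO against WT ALDO, went from -0.087 to 0.034 when all probe sets were averaged. Over the settings, the median lay between -0.17 and -0.05 for KO ALDO against KO control, and between -0.22 and -0.03 for KO ALDO against WT ALDO. Centring arrays on their medians gave medians of -0.103 for KO control against WT control and -0.216 for KO ALDO against WT ALDO, and 1 gene lower by 1.5-fold or more in KO control. Averaging all probe sets gave complex II minus the other genes as 0.034 for KO ALDO against WT ALDO and 0.102 for the difference between the ALDO effects. It also gave 1 gene higher by 1.5-fold or more for KO ALDO against WT ALDO, 2 for KO ALDO against KO control and 3 for WT ALDO against WT control. Without the low-signal filter these counts were 1, 2 and 3 too, 2 for KO control against WT control, and 1 higher and 2 lower for the difference between effects. Among the brightest 25% of genes, 0 were higher for KO control or WT ALDO against WT control, and 0 were lower for KO ALDO against WT ALDO or for the difference between effects. Without assembly factors 0 were lower for KO ALDO against WT ALDO. No paired analysis was possible because each group had 1 array. The median gap between probe sets of a gene was 0.05 to 0.11, depending on the comparison, so single differences of that size are poorly resolved.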

Other observations

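A list of uncoupling and antioxidant genes of mitochondria had 6 bright genes (Sod2, Prdx3, Txn2, Gpx1, Gpx4 and Glrx2). All 6 were lower in KO ALDO than in KO control, at a median log2 difference of -0.18, and 5 of 6 were lower than in WT ALDO, at -0.19. Sod2, the manganese superoxide dismutase, had intensities of 10056 in KO ALDO, 12889 in WT ALDO, 11998 in KO control and 12967 in WT control. Prdx3, the mitochondrial peroxiredoxin, had 6082 in KO ALDO, 7894 in WT ALDO, 7405 in KO control and 7053 in WT control. In both genes KO ALDO was below the other 3 arrays. The 4 assembly genes of complex V had medians of -0.20 for KO ALDO against KO control, with 4 of 4 lower, and -0.19 against WT ALDO, with 3 of 4 lower.

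Markers of other cells were mixed. Smooth muscle markers had a median of 1.19 against KO control and 0.92 against WT ALDO over 3 bright genes, with 3 and 2 of 3 higher (Myh11 was -0.11 against WT ALDO), and summed to 9302 in KO ALDO, 4942 in WT ALDO, 3980 in KO control and 3167 in WT control. Mesangial markers had 0.19 and 0.45, with 3 and 4 of 5 higher, and podocyte markers 0.18 and 0.14, with 3 and 5 of 5 higher.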
